A study of Homo sapiens with 6 samples.

Results

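The genes described here are 10 subunits of the SIN3, CoREST and CtBP corepressor complexes, *SIN3A*, *SIN3B*, *KDM1A*, *HDAC1*, *HDAC2*, *RBBP4*, *RBBP7*, *RCOR1*, *CTBP1* and *CTBP2*. They were chosen by symbol, and all 10 of 10 were found among the 23047 genes with a symbol in the merged count table. The libraries came from HEK293T cells, a derivative of the human embryonic kidney line HEK293 with SV40 large T antigen; the series text calls them HEK293. There were 3 libraries of cells expressing a control hairpin (sh-control, replicates 1 to 3) and 3 of cells expressing a hairpin against *RREB1*, a zinc finger transcription factor (sh-RREB1, replicates 1 to 3). The methods describe hairpins delivered by a lentiviral vector into cells selected as stable lines, so both groups carry an integrated vector and have been through selection. The cells were grown in DMEM with 10% FBS, total RNA was sequenced with its strand kept, and nothing in the labels says that replicates were separate cultures, so p-values measure the spread between these libraries, which may be technical. The comparison asks whether transcripts of complexes that the study examined together with *RREB1* differ between the groups.

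The complexes share parts. SIN3A and SIN3B are scaffolds that carry the histone deacetylases HDAC1 and HDAC2 and the WD40 histone chaperones RBBP4 and RBBP7. CoREST, whose scaffold is RCOR1, carries the same deacetylases beside KDM1A (also named LSD1), which removes methyl groups from lysine 4 of histone H3. CTBP1 and CTBP2 are dimeric proteins related to dehydrogenases that bind short peptide motifs in DNA-bound repressors and bring in CoREST and histone methyltransferases. The deacetylases and the chaperones also serve the NuRD complex, and the chaperones serve PRC2 as well.

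Between 12257054 and 33044061 reads per library were counted on genes. The lowest total belonged to sh-RREB1 replicate 3, in which 52.1% of aligned reads mapped to more than 1 place, against 3.66% to 7.63% elsewhere. *RREB1* stood at 27.1, 25.2 and 26.6 CPM in sh-control, against 23.7, 24.6 and 23.2 CPM in sh-RREB1, where CPM is the read count per library size, scaled by edgeR's TMM factors. Its log2 fold change was −0.14 (SE 0.13, edgeR adjusted p = 0.486), with every sh-RREB1 library below every sh-control library. With a correction for exonic GC content and length, described with the corepressor genes, it was −0.36 (edgeR adjusted p = 0.0534). A knockdown of the transcript was not shown by this test, and directions rest on the labels. Of the HEK293 markers, *VIM*, *KRT8*, *KRT18*, *NEFL* and *NEFM* had from 265 to 16114 reads, but the kidney factor *PAX2* only 3 to 10. The 6 markers of leukocytes, myeloid cells, hepatocytes, endothelium, fibroblasts and cardiomyocytes had at most 17 reads in any library.

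In sh-RREB1, *SIN3B* and *CTBP1* transcripts were higher and those of *HDAC1*, *RBBP4*, *RBBP7* and *RCOR1* were lower. *CTBP1* had the largest fold (2.27-fold, 95% interval 1.61 to 3.19), and *RBBP7* the largest decrease (0.656-fold, 0.567 to 0.759). With the correction *CTBP1* was at 1.09-fold (edgeR adjusted p = 0.523), which ends its call, and *HDAC1* (0.645-fold) rather than *RBBP7* (0.716-fold) had the largest decrease. These 6 of the 10 genes passed an adjusted p of 0.05 in the quasi-likelihood test of edgeR, adjusted by Benjamini-Hochberg over all 23304 genes tested. Among all genes, 10.8% passed that threshold as higher and 8.81% as lower. Those shares include genes with as few as 10 reads over the 6 libraries, far fewer than the corepressor genes had. Under edgeR's own expression filter, 26.8% of 17422 genes passed in either direction, and 4 of the 10 corepressor genes did. Only *CTBP1* met the study's stricter rule, an adjusted p below 0.01 with an absolute log2 fold change above 1, which 2.71% of all genes met as higher and 0.699% as lower. The median log2 fold change of the 10 genes was −0.32, beside 0.01 for all genes tested. With the correction these medians were −0.19 and −0.03. In bulk RNA, fewer cells with a transcript and less of it per cell cannot be told apart.

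**Figure D1:**
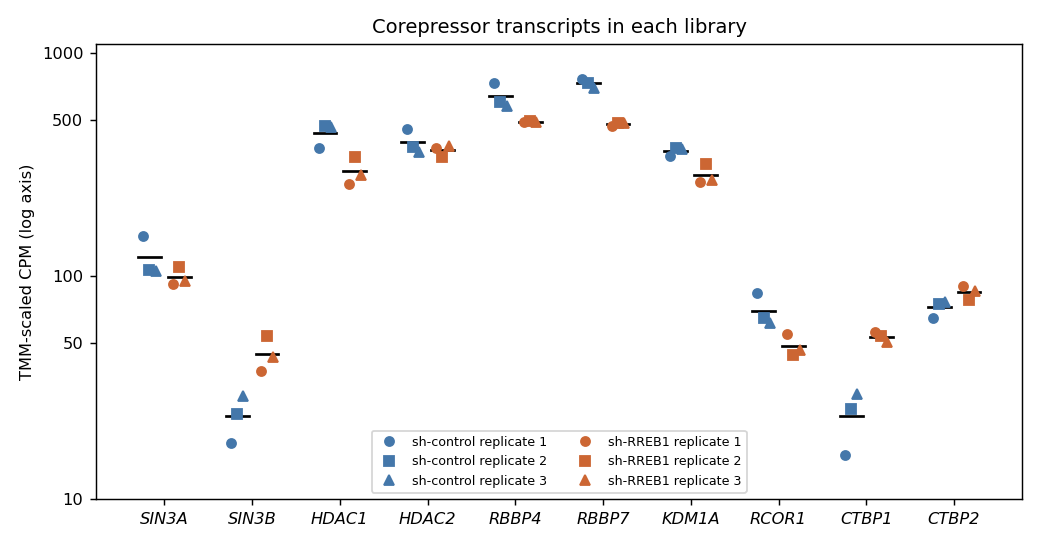
TMM-scaled CPM of each corepressor gene on a log axis, for the 3 sh-control (blue) and 3 sh-RREB1 (orange) libraries; horizontal bars are group means and marker shapes the replicate number. The sh-RREB1 libraries lie above every sh-control library for *SIN3B*, *CTBP1* and *CTBP2* and below every one for *HDAC1*, *RBBP4*, *RBBP7*, *KDM1A* and *RCOR1*.

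The groups did not overlap for 8 of the 10 genes. The 3 sh-RREB1 libraries were all above sh-control for 3 genes and all below for 5. Over all genes tested, 21.1% lay entirely above and 20.0% entirely below.

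Per kilobase of exon (RPKM, TMM-scaled CPM divided by exonic length), the deacetylase and chaperone genes were at the top of the group in sh-control and *SIN3B* and *CTBP1* at the bottom. *HDAC1* was at 110.4 ± 13.7 RPKM (SD, n = 3), *RBBP7* at 99.7 ± 4.51 and *RBBP4* at 67.6 ± 8.84. *HDAC2* followed at 26.0 ± 3.36 and *KDM1A* at 19.9 ± 0.876. *RCOR1* was at 11.3 ± 1.91, *SIN3A* at 9.44 ± 2.07 and *CTBP2* at 6.52 ± 0.572. *SIN3B* stood at 2.69 ± 0.640 and *CTBP1* at 2.23 ± 0.679. Libraries of neighbours in this order overlapped for *HDAC1* and *RBBP7*, for *RCOR1* and *SIN3A*, and for *SIN3B* and *CTBP1*, so those pairs are not ordered. In sh-RREB1 the range between the top and the bottom was narrower, from *HDAC1* at 74.5 ± 10.7 RPKM to *CTBP1* at 5.07 ± 0.258 (SD, n = 3). These RPKM carry no GC and length correction. With it, *HDAC1* kept its decrease (0.645-fold) but *CTBP1* was at 1.09-fold (edgeR adjusted p = 0.523). Exonic length is the union of all annotated exons of a gene, which counts bases that HEK293T cells may not use. It was 3966 bases for *HDAC1*, 15333 for *HDAC2* and 18325 for *KDM1A*. Their mean CPM in sh-control lay closer together, at 438, 398 and 364, so the distance between these genes in RPKM rests largely on length.

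Of the SIN3 scaffolds, *SIN3A* (ENSG00000169375, GRCh38 chromosome 15 from 75369379 to 75455842, minus strand) was at 152, 107 and 105 CPM in sh-control. It was at 92.2, 109 and 95.5 CPM in sh-RREB1. Sh-control replicate 1 stood above the rest, and the groups overlapped. The log2 fold change was −0.29 (SE 0.16, 95% interval −0.65 to 0.07, edgeR adjusted p = 0.236). *SIN3B* (ENSG00000127511, chromosome 19 from 16829398 to 16880353, plus strand) was at 17.8, 24.0 and 29.0 CPM in sh-control, from 409, 652 and 931 reads. In sh-RREB1 it was at 37.5, 53.7 and 43.5 CPM, from 930, 1406 and 548 reads. Each sh-RREB1 library was above each sh-control library, with a log2 fold change of 0.93 (SE 0.21, 95% interval 0.46 to 1.40, edgeR adjusted p = 0.0176). The edgeR adjusted p of *SIN3B* rose to 0.0729 without sh-control replicate 2, and to 0.0632 on leaving out sh-RREB1 replicate 3, the library rich in multimapping reads. It also missed 0.05 without sh-RREB1 replicate 2.

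The coding sequences show how the scaffolds differ as templates for reads. Over 1116 aligned codons, *SIN3A* and *SIN3B* encode the same residue at 55.8%, and of those matching codons 56.8% are spelled differently. GC content at the third position of codons is 51.4% in *SIN3A* and 83.2% in *SIN3B*. The most alike stretch of 30 codons that lies in a single exon of each gene (27 residues shared) is printed to show these spelling changes, 5′ to 3′, with capitals at the 25 bases that differ between the paralogues, 20 of them at the third position of a codon. The *SIN3A* line is chr15:75400745-75400834 on the minus strand (coding exon 10) and the *SIN3B* line chr19:16862455-16862544 on the plus strand (coding exon 9), from GRCh38 with the canonical transcripts of Gencode version 44.
SIN3A: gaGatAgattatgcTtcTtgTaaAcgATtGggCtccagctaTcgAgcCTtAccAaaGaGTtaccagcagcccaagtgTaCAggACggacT
SIN3B: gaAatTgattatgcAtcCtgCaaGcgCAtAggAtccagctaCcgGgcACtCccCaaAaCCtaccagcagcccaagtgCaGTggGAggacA
The third position was G or C in 13 of the 30 *SIN3A* codons and in 19 of the 30 *SIN3B* codons.

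*HDAC1* and *HDAC2* are the class I deacetylases of SIN3, CoREST and NuRD alike; *HDAC1* passed the test and *HDAC2* did not. *HDAC1* (ENSG00000116478, chromosome 1 from 32292083 to 32333635, plus strand) was at 375, 470 and 468 CPM in the sh-control libraries against 259, 342 and 285 CPM in sh-RREB1. All sh-RREB1 libraries were below all sh-control libraries. The log2 fold change was −0.57 (SE 0.14, 95% interval −0.88 to −0.25, edgeR adjusted p = 0.0239). Leaving out sh-control replicate 2 gave *HDAC1* an edgeR adjusted p of 0.0799, and leaving out sh-RREB1 replicate 3 gave 0.102; it also missed 0.05 without sh-RREB1 replicate 1. *HDAC2* (ENSG00000196591, chromosome 6 from 113933028 to 114011308, minus strand) was at 457, 378 and 360 CPM across sh-control and at 374, 343 and 382 CPM in sh-RREB1. These groups overlapped, and the log2 fold change of −0.12 (95% interval −0.39 to 0.15) had an edgeR adjusted p of 0.520. Pseudogene copies of *HDAC1* held at most 0.673% as many reads as *HDAC1* itself. Reads that mapped to more than 1 place were in neither count, so this share does not measure reads common to gene and copy.

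The HDAC1 and HDAC2 proteins share 86.1% of 482 aligned residues, but their genes differ in base composition. GC content at the third position of codons is 61.6% in *HDAC1* and 30.9% in *HDAC2*, and over the exons it is 50.6% and 36.5%. A stretch of 30 codons with all 30 residues shared is printed to show that the transcripts can be told apart by sequence where the proteins cannot. Capitals mark the 16 bases that differ; the lines are chr1:32302629-32302718 (plus strand) and chr6:113959921-113960010 (minus strand), coding exon 2 in each.
HDAC1: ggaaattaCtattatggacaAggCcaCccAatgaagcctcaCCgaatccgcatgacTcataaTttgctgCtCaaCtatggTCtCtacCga
HDAC2: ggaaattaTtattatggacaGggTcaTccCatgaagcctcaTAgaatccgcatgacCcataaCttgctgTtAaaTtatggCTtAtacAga
The longest run of identical bases between the aligned coding sequences of *HDAC1* and *HDAC2* is 17.

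*RBBP4* and *RBBP7*, which encode the histone chaperones of SIN3, NuRD and PRC2, were both lower. *RBBP7* (ENSG00000102054, chromosome X from 16839283 to 16870362, minus strand) was at 762, 737 and 697 CPM in sh-control. It was at 470, 486 and 485 CPM in sh-RREB1, a drop well beyond the spread within either group. Its log2 fold change was −0.61 (SE 0.09, 95% interval −0.82 to −0.40, edgeR adjusted p = 0.00520). *RBBP7* passed 0.05 with each library left out in turn, at edgeR adjusted p from 0.00294 to 0.0378. *RBBP4* (ENSG00000162521, chromosome 1 from 32651142 to 32686211, plus strand) was at 736, 605 and 580 CPM over the sh-control replicates and at 491, 495 and 491 CPM in sh-RREB1. The groups did not overlap, but sh-control replicate 1 was well above the other two. The log2 fold change was −0.38 (SE 0.11, 95% interval −0.64 to −0.12, edgeR adjusted p = 0.0482), close to the threshold. *RBBP4* missed 0.05 on leaving out any library other than sh-control replicate 3, for example with an edgeR adjusted p of 0.0561 when sh-control replicate 1 was dropped and 0.158 when sh-RREB1 replicate 3 was.

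The chaperones are the closest pair in protein, with 89.6% of 424 aligned residues shared, and the most alike in base composition, with exonic GC content of 42.6% in *RBBP4* and 44.4% in *RBBP7*. Their most alike stretch of 30 codons, all residues shared, is printed for comparison with the other pairs, with capitals at its 19 differing bases. The lines are chr1:32672791-32672880 (plus strand) and chrX:16845849-16845938 (minus strand), coding exon 11 in each.
RBBP4: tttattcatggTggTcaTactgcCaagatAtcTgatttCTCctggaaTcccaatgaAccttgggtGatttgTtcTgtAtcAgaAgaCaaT
RBBP7: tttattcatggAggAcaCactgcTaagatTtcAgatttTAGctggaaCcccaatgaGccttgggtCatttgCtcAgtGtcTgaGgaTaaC

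Of the CoREST core, the scaffold was lower and the demethylase fell just short of the threshold. *RCOR1* (ENSG00000089902, chromosome 14 from 102592649 to 102730561, plus strand) was at 83.6, 64.8 and 61.7 CPM in the sh-control libraries against 55.1, 44.4 and 46.5 CPM in sh-RREB1. The groups did not overlap, with a log2 fold change of −0.52 (SE 0.15, 95% interval −0.87 to −0.18, edgeR adjusted p = 0.0434). The edgeR adjusted p of *RCOR1* was 0.0635 without sh-control replicate 1 and 0.0907 when replicate 2 was dropped instead. It was 0.148 when sh-RREB1 replicate 3 was dropped, and it also missed 0.05 without sh-RREB1 replicate 2. *KDM1A* (ENSG00000004487, chromosome 1 from 23019443 to 23083689, plus strand) was at 346, 375 and 372 CPM across sh-control and at 264, 320 and 269 CPM in sh-RREB1. Here too no sh-RREB1 library reached the lowest sh-control library. The log2 fold change of *KDM1A* was −0.36 (SE 0.11, 95% interval −0.61 to −0.11, edgeR adjusted p = 0.0517). DESeq2, the tool named in the study's methods, gave −0.37 with an adjusted p of 0.0325, and edgeR without sh-control replicate 1 gave −0.43 with an adjusted p of 0.0218. In the other direction, the edgeR adjusted p of *KDM1A* was 0.122 when sh-control replicate 2 was dropped, 0.194 when sh-RREB1 replicate 3 was, and 0.253 with the GC and length correction.

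Of the CtBP pair, *CTBP1* was higher and *CTBP2* did not pass the test. *CTBP1* (ENSG00000159692, chromosome 4 from 1211445 to 1250333, minus strand) was at 15.7, 25.4 and 29.6 CPM in sh-control, on 360, 690 and 950 reads. The sh-RREB1 libraries held 56.0, 53.8 and 50.6 CPM, on 1390, 1407 and 638 reads. These were close together, while sh-control replicate 1 had the lowest value of the 6. The log2 fold change was 1.18 (SE 0.22, 95% interval 0.69 to 1.67, edgeR adjusted p = 0.00905). *CTBP1* missed the stricter rule whichever of the 6 libraries was left out. Without sh-control replicate 1 its log2 fold change was 0.93 (edgeR adjusted p = 0.00188), under the minimum of 1, and without any other library its adjusted p lay above 0.01, at most 0.0479. *CTBP2* (ENSG00000175029, chromosome 10 from 124984317 to 125161170, minus strand) was at 65.0, 75.2 and 76.7 CPM over the sh-control replicates and at 90.2, 78.4 and 85.8 CPM in sh-RREB1. Its groups did not overlap, but by little, and the log2 fold change of 0.23 (SE 0.12, 95% interval −0.03 to 0.49) had an edgeR adjusted p of 0.201.

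Strand matters for *CTBP2*. Its exons overlap those of *ZRANB1* on the other strand over 3416 bases, and from 29.5% to 42.7% of the reads at *CTBP2* lay on that strand and were left out of its count. The *CTBP2* count also pools a long form with its own first coding exon (RIBEYE, a protein of retinal and inner ear synapses) with the short CtBP2 form, and the counts do not separate them. The other 9 genes had at most 1.92% of their reads on the opposite strand.

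*CTBP1* and *CTBP2* share 81.1% of 428 aligned residues. GC content at the third position of codons is 83.4% in *CTBP1*, the highest of the 10 genes, and 70.5% in the long form of *CTBP2*. A stretch of 30 codons with all residues shared is printed because *CTBP1* was the gene past the stricter rule. Capitals mark the 15 bases that differ; the lines are chr4:1225376-1225465 and chr10:124997980-124998069, both on the minus strand and in coding exon 4.
CTBP1: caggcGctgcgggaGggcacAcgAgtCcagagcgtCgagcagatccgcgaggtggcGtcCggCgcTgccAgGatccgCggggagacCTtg
CTBP2: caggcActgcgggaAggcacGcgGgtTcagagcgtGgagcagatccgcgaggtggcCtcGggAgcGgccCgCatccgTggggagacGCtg
Both CtBP stretches are 72.2% GC, against 45.6% and 38.9% for those of *HDAC1* and *HDAC2*.

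**Figure D2:**
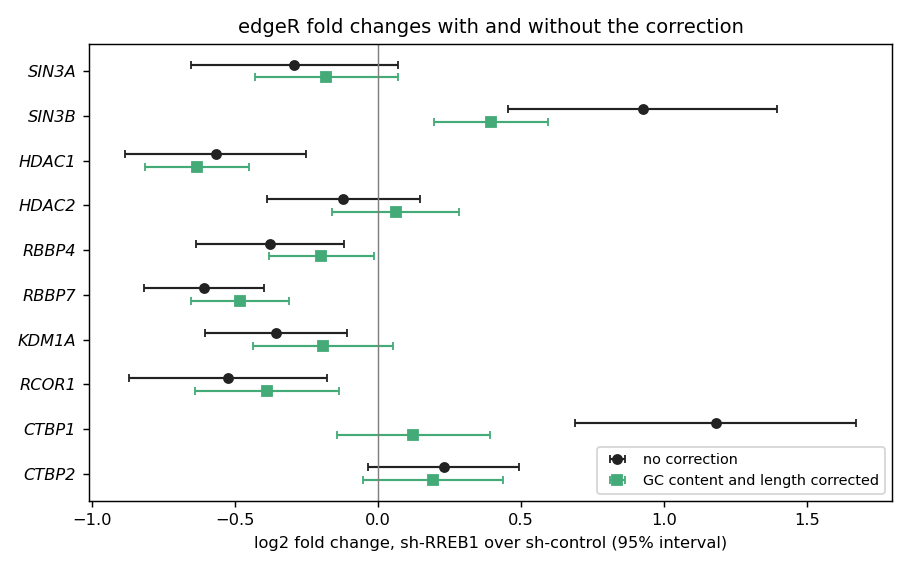
Log2 fold change of each corepressor gene (sh-RREB1 over sh-control) from edgeR with its 95% interval, without (black circles) and with (green squares) a correction for exonic GC content and length. *CTBP1* went from 1.18 to 0.12 and *SIN3B* from 0.93 to 0.40, whereas *HDAC1* (−0.57 and −0.63) and *RBBP7* (−0.61 and −0.48) kept most of their change.

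Fold changes in these libraries rose with exonic GC content, except among genes of low GC content, and the 10 genes span most of its range. Among 16395 expressed genes (mean log2 CPM above 0), the 1640 with the lowest GC content had a median log2 fold change of −0.22 and the 1640 with the highest a median of 1.10. *CTBP1*, at 61.6% GC the richest of the 10, had 1.18, and the 1217 expressed genes within 2 percentage points of its GC content had a median of 0.99 (quartiles 0.58 and 1.36). *CTBP1* was therefore inside the middle range of genes of its composition. *SIN3B*, at 56.0% GC, had 0.93 where genes of like GC content had a median of 0.45 (quartiles 0.15 and 0.77), so it was above the upper quartile. *HDAC1* departed most in the other direction, with −0.57 at 50.6% GC, where the median was 0.06 (quartiles −0.22 and 0.35). *RBBP7* (−0.61) and *RCOR1* (−0.52), at 44.4% and 44.6% GC, were also below the lower quartiles of genes like them, both −0.43. *SIN3A*, *KDM1A*, *RBBP4*, *HDAC2* and *CTBP2* lay between the quartiles of genes of their GC content. These positions are descriptions, with no test.

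**Figure D3:**
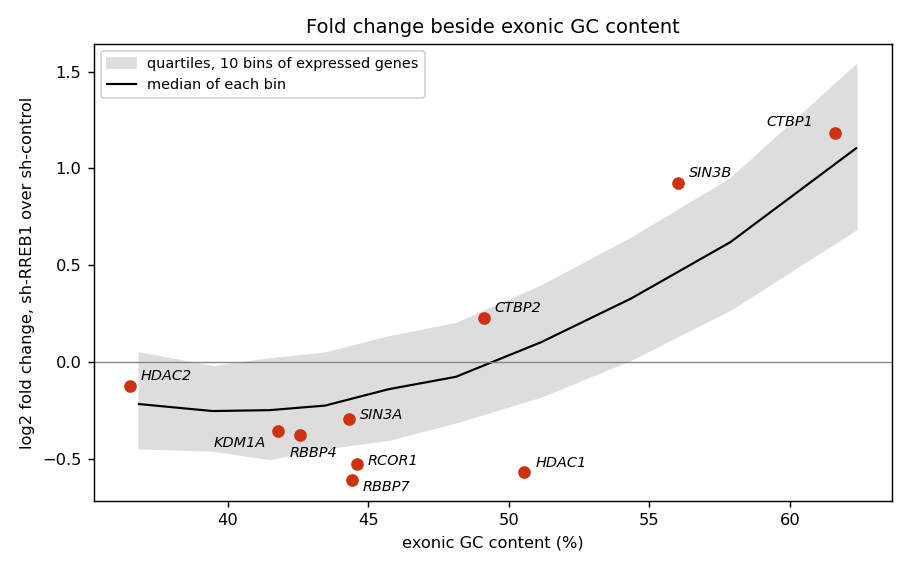
Log2 fold change (sh-RREB1 over sh-control) against exonic GC content in percent; red points are the 10 corepressor genes, and the line and grey band are the median and quartiles of the 16395 expressed genes in 10 bins of equal size. *CTBP1* lies in the band near its median, *SIN3B* above it, and *HDAC1*, *RBBP7* and *RCOR1* below it.

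With the trend of each library on exonic GC content and length removed as an offset, 4 of the 10 genes passed an adjusted p of 0.05 in edgeR, 1 as higher and 3 as lower. Of all genes, 10.4% then passed as higher and 11.7% as lower. *HDAC1* stayed lower, at −0.63 (95% interval −0.81 to −0.45, edgeR adjusted p = 0.000415), and so did *RBBP7*, at −0.48 (−0.65 to −0.31, edgeR adjusted p = 0.00139). *RCOR1* stayed lower at −0.39 (edgeR adjusted p = 0.0318), and *SIN3B* higher at 0.40 (95% interval 0.20 to 0.60, edgeR adjusted p = 0.00937). *CTBP1* moved to 0.12 (95% interval −0.14 to 0.39, edgeR adjusted p = 0.523), and so no longer met the stricter rule. *RBBP4* moved to −0.20 (edgeR adjusted p = 0.119) and *KDM1A* to −0.19 (edgeR adjusted p = 0.253). *HDAC2* changed sign, to 0.06 (95% interval −0.16 to 0.29). *HDAC1* and *RBBP7* passed 0.05 under the correction also with each of the 6 libraries left out, at edgeR adjusted p up to 0.00625 and 0.0127. *SIN3B* then lost its call without sh-control replicate 2 or sh-RREB1 replicate 3, at most with an adjusted p of 0.0546. *RCOR1* was the least stable of these, since it passed in 2 of the 6 corrected fits with a library left out, with edgeR adjusted p up to 0.124 (without sh-RREB1 replicate 3). The groups differ in the trend that is removed, so a change that truly follows GC content would be removed with it, and these cannot be told apart in this design.

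The balance of each pair of paralogues was read as the ratio of their reads within a library, which no scaling between libraries can alter. *SIN3A* had 8.54, 4.45 and 3.62 reads per *SIN3B* read in sh-control and 2.46, 2.03 and 2.20 in sh-RREB1. The groups did not overlap, and the log2 ratio was lower by 1.22 on average (−1.22, SE 0.38). *CTBP1* had 0.241, 0.338 and 0.386 reads per *CTBP2* read in sh-control and 0.621, 0.686 and 0.590 in sh-RREB1, a log2 difference of 1.0 (SE 0.21) with no overlap. *RBBP4* had 0.965, 0.820 and 0.832 reads per *RBBP7* read in sh-control and 1.04, 1.02 and 1.01 in sh-RREB1, a log2 difference of 0.24 (SE 0.08) with no overlap. *HDAC1* had 0.822, 1.24 and 1.30 reads per *HDAC2* read in sh-control and 0.694, 0.999 and 0.746 in sh-RREB1, where the groups overlapped and the log2 difference was −0.45 (SE 0.27).

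The balance of *SIN3A* with *SIN3B*, *CTBP1* with *CTBP2* and *RBBP4* with *RBBP7* each gave p = 0.1 in a two-sided exact permutation test, the smallest that 3 libraries against 3 allow, and *HDAC1* with *HDAC2* gave p = 0.2 in the same exact test. Adjusted over the 4 pairs, these exact p-values were 0.133 and 0.2. No pair could pass 0.05 at this size. With the GC and length trend removed, the *CTBP1* to *CTBP2* difference went from 1.0 to −0.07 (SE 0.10, exact permutation p = 1). The *SIN3A* to *SIN3B* difference went to −0.57 (SE 0.15), *HDAC1* to *HDAC2* to −0.69 (SE 0.07) and *RBBP4* to *RBBP7* to 0.29 (SE 0.06), each without overlap and with an exact permutation p of 0.1.

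**Figure D4:**
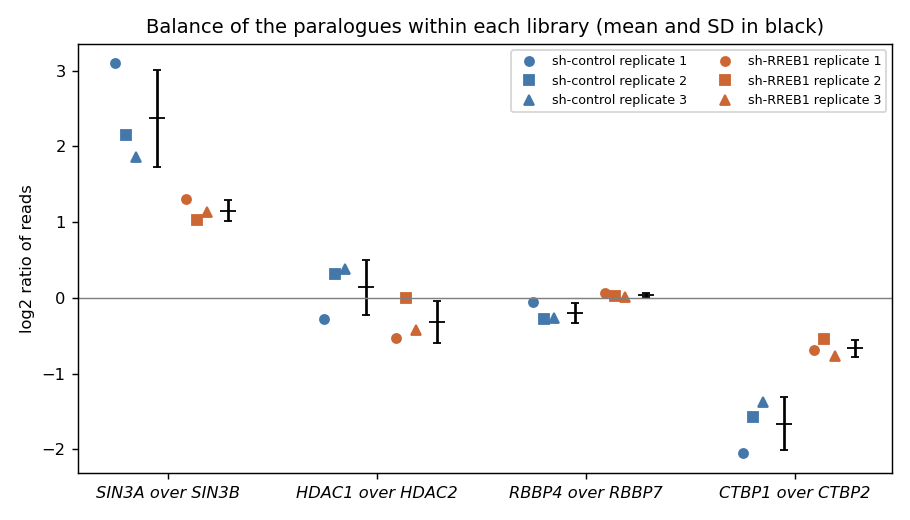
Log2 ratio of reads of each pair of paralogues in each library, before any correction, with group means and SD in black (n = 3). The sh-RREB1 libraries lie below sh-control for *SIN3A* over *SIN3B* (mean 1.15 against 2.37) and above it for *CTBP1* over *CTBP2* (−0.66 against −1.66), while *HDAC1* over *HDAC2* overlaps.

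Other subunits of the same complexes included genes that passed in each direction. Over 7 lists holding 74 genes, 73 were tested in edgeR (*SAP25* had too few reads), 13 passed an adjusted p of 0.05 as higher and 16 as lower, and their median log2 fold change was −0.05. Over all genes, 10.8% passed as higher and 8.81% as lower. Among the 19 SIN3 partners tested, 2 were higher and 6 lower, with a median of −0.27. The forkhead factors *FOXK1* (1.31, edgeR adjusted p = 0.00270) and *FOXK2* (0.88, edgeR adjusted p = 0.00430) were higher, and the histone H3 lysine 4 demethylase *KDM5A* (−0.62) and the SIN3-associated *ARID4B* (−0.68) were lower. Beside them, *SIN3B* was at 0.93 and *SIN3A* at −0.29.

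Of 11 CoREST partners (median 0.06), 2 were lower, among them the zinc finger subunit *ZMYM2* (−0.45, edgeR adjusted p = 0.0249), beside *RCOR1* at −0.52. Of 9 CtBP partners (median 0.31), 3 were higher and 2 lower. The zinc finger protein *WIZ*, which works with histone H3 lysine 9 methyltransferases, had the largest increase of any gene in the lists, 1.98 (edgeR adjusted p = 0.00206). *ZNF516* (0.82) and the methyltransferase gene *EHMT2* (0.82) were also higher, whereas *ZEB1* (−0.78, edgeR adjusted p = 0.00954), a repressor that binds CtBP, was lower.

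NuRD, PRC2 and CAF-1 share members of the group. Of 9 NuRD subunits (median 0.10), *GATAD2A* (1.45), *MBD3* (1.37) and *MTA1* (1.07) were higher, beside *HDAC1* at −0.57, *RBBP4* at −0.38 and *RBBP7* at −0.61. With the GC and length correction this contrast did not hold, since 1 of the 9 passed 0.05 as higher and 3 as lower (median −0.05). Of 7 subunits of PRC2, CAF-1 and the HAT1 enzyme (median −0.32), *SUZ12* (−0.73), *EZH1* (−0.59) and *HAT1* (−0.52) were lower. Of 6 genes for the other class I deacetylases and their partners (median −0.01), 2 were higher, among them *TBL1X* (0.53), and the deacetylase gene *HDAC8* (−0.42) was lower. KDM1A removes the mono- and dimethyl forms of histone H3 lysine 4 methylation. Of 12 enzymes and core subunits that write or erase any form of this mark, 3 were higher and 2 lower (median 0.03). *KMT2B* (1.27), *SETD1A* (1.06) and *KMT2D* (1.02) were higher and *RBBP5* (−0.39) was lower, each below an edgeR adjusted p of 0.05.

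**Figure D5:**
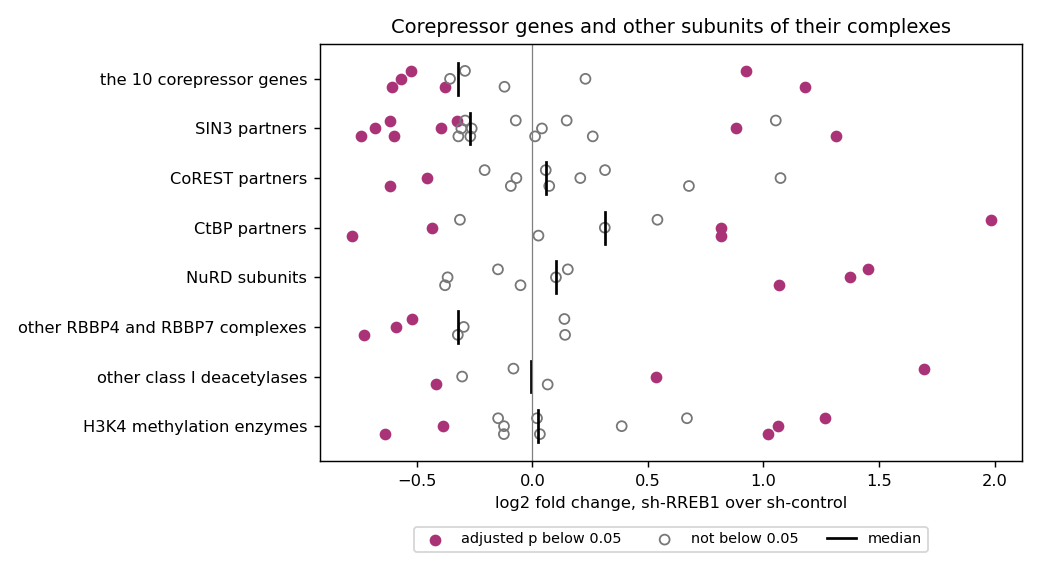
Log2 fold change (sh-RREB1 over sh-control, edgeR) of the corepressor genes and of 73 partners in 7 lists; filled points have an adjusted p below 0.05 and black bars are list medians. Without the GC and length correction, the 10 corepressor genes have a median of −0.32, the SIN3 partners −0.27 and the CtBP partners 0.31. With it (not drawn) these medians are −0.19, −0.15 and 0.16.

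With the GC and length correction the partners' count was 7 higher and 16 lower of 73 in edgeR, with a median of −0.09. Over all genes in that fit, 10.4% passed as higher and 11.7% as lower. The 7 partners that met the stricter rule as higher without the correction did not meet it with it. Of the partners named above, *FOXK1* (0.65), *FOXK2* (0.32), *WIZ* (0.86), *ZNF516* (0.51), *GATAD2A* (0.84) and *TBL1X* (0.47) passed 0.05 as higher under the correction. *KDM5A* (−0.44), *ARID4B* (−0.48), *ZEB1* (−0.57), *SUZ12* (−0.49), *EZH1* (−0.62) and *HAT1* (−0.28) passed as lower. The other 9 did not pass. Among these, *KMT2B* went to 0.19 (edgeR adjusted p = 0.409), *KMT2D* to 0.30 (0.0890), *MBD3* to 0.18 (0.242), *EHMT2* to 0.33 (0.0581), *RBBP5* to −0.21 (0.0990), *ZMYM2* to −0.28 (0.0785) and *HDAC8* to −0.24 (0.120). *MTA1* turned from 1.07 to −0.38 (edgeR adjusted p = 0.202) and *SETD1A* from 1.06 to −0.15 (edgeR adjusted p = 0.533), at exonic GC contents of 64.8% and 63.1%. Without sh-RREB1 replicate 3 the partners' count in edgeR was 10 higher and 4 lower, and *CTBP1* (edgeR adjusted p = 0.0392) and *RBBP7* (edgeR adjusted p = 0.0377) were the only corepressor genes of the 10 that passed 0.05. Of all genes, 6.69% passed 0.05 in that fit, against 19.6% with all 6 libraries, so fewer calls were not particular to these genes.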

How the data were processed

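The authors aligned stranded total RNA reads to hg38 with STAR (version 2.4.2a, Gencode version 25) and deposited raw read counts per gene, with no normalization. Counts on the gene's strand were used, and rows of unassigned reads were left out. Of identifiers sharing a symbol, that with the most reads was kept, and 23304 genes with at least 10 reads over the 6 libraries were tested with edgeR 4.0.16 (quasi-likelihood, TMM, condition only, R 4.3.3) and Benjamini-Hochberg adjustment. The alternatives were DESeq2 1.42.0, both strands together, the merged table, other read minimums, RLE and upper quartile scaling, the replicate number as a block, the GC and length correction, and each library left out. Intervals are at 95%. Coordinates, exonic lengths, GC content and coding sequences came from Gencode version 44 on GRCh38, the assembly the labels name as hg38; encoded residues were aligned with BLOSUM62 (biopython 1.88). The correction fitted natural splines of 5 degrees of freedom on GC content and log length in each library.

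The genes, the partner lists and the alternatives were chosen with earlier results of these data known. All 10 genes are reported, and from each partner list the genes with an adjusted p below 0.05, up to the 4 with the smallest, other than some that are not reported here. Precision is limited by depth (12257054 to 33044061 reads on genes) and by 3 libraries per group. Chi-square per degree of freedom between libraries of a group was lowest for sh-control replicates 2 and 3 (4.25), so none looked like a library deposited more than once, and all were kept. It was 41.2 and 52.4 for sh-control replicate 1 against the others, and 11.7 to 46.8 within sh-RREB1. This does not show separate cultures.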

Additional observations from a re-analysis of the deposited data

How the results depend on the processing

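The signs of 9 of the 10 corepressor fold changes held in all 22 alternatives. *HDAC2* turned positive in 7 of the 22. It was at 0.063 with the GC content and length correction and at 0.054 with that correction and the replicate block. The rest of the 7 were corrected fits with a library left out, up to 0.168. *RBBP7* passed an adjusted p of 0.05 in 22 of 22 alternatives, *HDAC1* in 19, *SIN3B* in 17, *CTBP1* in 14, *RCOR1* in 12, *RBBP4* and *KDM1A* in 7, and *CTBP2* in 1. The number of corepressor genes past the stricter rule went from 1 to 0 with both strands counted together, with the GC correction and with the correction and the replicate block, and was 0 to 0 with any library left out (here and below, ranges with a library left out include fits with and without the GC correction). The number at an adjusted p of 0.05 went from 6 to between 2 and 6 with a library left out, and the number of partners from 29 to between 11 and 31. The share of all genes that passed it also moved in these fits, from 19.6% to between 6.13% and 25.2%. Of all genes, 794 met the stricter rule (631 higher, 163 lower). The count was 1647 with DESeq2, 1801 with a minimum of 1 read, 2032 at an adjusted p of 0.05 with the same fold, and 8 to 1117 with a library left out (8 when sh-RREB1 replicate 3 was dropped, 9 for sh-control replicate 2, 25 for sh-RREB1 replicate 1, 136 for sh-RREB1 replicate 2 and 383 for sh-control replicate 3). With the GC correction it was 704, with 424 higher and 280 lower. *RREB1* went from −0.14 to −0.37 with the correction and the block, past an adjusted p of 0.05, and ranged from −0.44 to −0.12 with a library left out. The *CTBP1* to *CTBP2* balance turned from 1.0 to −0.073 with the correction, and ranged from −0.13 to 1.15 with a library left out. *HDAC2* ranged from −0.21 to 0.17 with a library left out. The cause of these shifts was not tested.

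Deviations of libraries with the same replicate number correlated at 0.50, 0.43 and −0.28 over 14332 genes, so the numbers were not taken as pairs, and sh-control replicate 3 correlated best with sh-RREB1 replicate 2. With the replicate block, 1684 genes met the stricter rule and 7 of the 10 corepressor genes passed 0.05, while the share of all genes that passed it rose from 19.6% to 27.0%. Depth limits *SIN3B* and *CTBP1* most, whose lowest library had 409 and 360 reads.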

Other observations

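Reads on the strand opposite *CTBP2*, where the exons of *ZRANB1* lie, numbered 1114, 1230 and 1309 in sh-control replicates 1 to 3 and 1061, 858 and 510 in sh-RREB1 replicates 1 to 3. *CTBP2P8*, a processed copy of *CTBP2*, held at most 2.49% as many reads as *CTBP2* in any library, the highest share for any listed copy of the 10 genes. Reads that mapped to more than 1 place were not part of these counts.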
